A study of Mus musculus with 8 samples.

Results

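The tumour necrosis factor (TNF) superfamily genes examined here are 5 ligands, Tnfsf10, Fasl, Ltb, Tnf and Tnfsf14, and 5 receptors, Tnfrsf10b, Fas, Tnfrsf1a, Tnfrsf1b and Tnfrsf12a. They were taken by gene symbol from the deposited expression table, which lists 18262 genes, and all 10 were found. Expression was measured by RNA sequencing of polyA-selected RNA from colon tissue of wild-type mice in which colitis had been induced by dextran sulfate sodium (DSS), which damages the lining of the colon. The DSS + GAA group has 4 libraries from mice that received DSS and 20 mg/kg of ganoderic acid A (GAA), which is a lanostane triterpenoid found in Ganoderma mushrooms. The DSS group has 4 libraries from mice that received DSS without GAA. Replicates are numbered 1, 2, 4 and 5 in either group. The treatment labels of the DSS + GAA libraries read 20, 21, 22 and 23 mg/kg, whereas titles and design name a single dose of 20 mg/kg, so they were kept as 1 group. The labels give no age, sex, strain or days of treatment, and do not state whether the libraries come from separate animals. The spread behind each p-value is therefore the one between these libraries, which may be technical. Both groups received DSS, and no healthy level is given here.

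TNF superfamily ligands act as trimers on the cell surface or after shedding, and bind receptors of the TNF receptor superfamily. Fas, the TNF receptor encoded by Tnfrsf1a and the TRAIL receptor encoded by Tnfrsf10b carry a death domain in their cytoplasmic tail, through which adaptors recruit caspase-8 and start apoptosis, or kinases that start necroptosis. Other receptors, such as those encoded by Tnfrsf1b and Tnfrsf12a, have no death domain and bind TRAF adaptors that activate NF-kappa-B. In the colon, TNF is known as an inflammatory cytokine and as the target of antibodies used against ulcerative colitis and Crohn's disease.

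Expression is given as TPM, a normalized transcript abundance that divides reads by transcript length and by the library's total, so levels can be set side by side between genes. TPM keeps no record of sequencing depth, so depth is unknown and no counting interval could be given. Of the 11 listed colon epithelium markers, all 11 were tested, and their summed level was 17800 to 19200 TPM in DSS + GAA and 13200 to 16600 TPM in DSS. The test covered 14217 genes that reached 1 TPM in 4 or more of the 8 libraries, and all 10 superfamily genes were among them. Fold changes are on the log2(TPM + 1) scale, and a gene passed at a Benjamini-Hochberg adjusted p under 0.05 over all tested genes (limma). Over all tested genes the log2 fold change had a median of -0.25, which other scalings between libraries set at 0.00 (trimmed mean), 0.02 (quantile) or 0.05 (median centring). In this tissue RNA, fewer cells of a type and less RNA per cell cannot be told apart.

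Of the 10 genes, 3 ligands rose in DSS + GAA, 1 receptor fell and 6 genes did not pass. Tnfsf10 (TRAIL), Ltb (lymphotoxin beta) and Fasl (Fas ligand) rose, with log2 fold changes of 2.69, 1.22 and 0.87. Tnfrsf12a, the receptor of the cytokine TWEAK, fell by 1.29 on the log2 scale. Relative to the median gene the 4 changes were 2.94, 1.47, 1.12 and -1.04, in the order given. Tnf itself and its receptors did not pass, and neither did Fas, Tnfrsf10b or Tnfsf14. Among all tested genes, 5.96% were called higher and 28.2% lower, so 1 lower call among 10 genes lay below the background, and 3 higher calls lay above it. The median log2 fold change of the 10 genes was 0.07, against -0.25 for all tested genes. The groups did not overlap for Tnfsf10 and Fasl, with DSS + GAA above DSS in both, as for 5.31% of all tested genes, and 0 of the 10 genes lay wholly below DSS, as 27.6% of all tested genes did. The count of higher genes was 1 when DSS + GAA replicate 2 was left out, and that of lower genes was 0 when DSS replicate 1 was left out and 2 when DSS replicate 5 or DSS + GAA replicate 1 was. Across the 3 other scalings 0 of the 10 genes were called lower, where 11.6% (trimmed mean), 11.3% (quantile) and 9.20% (median centring) of all tested genes were. In the same order, 4, 3 and 4 of the 10 genes were called higher, where 13.3%, 11.8% and 15.2% of all tested genes were.

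**Figure D1:**
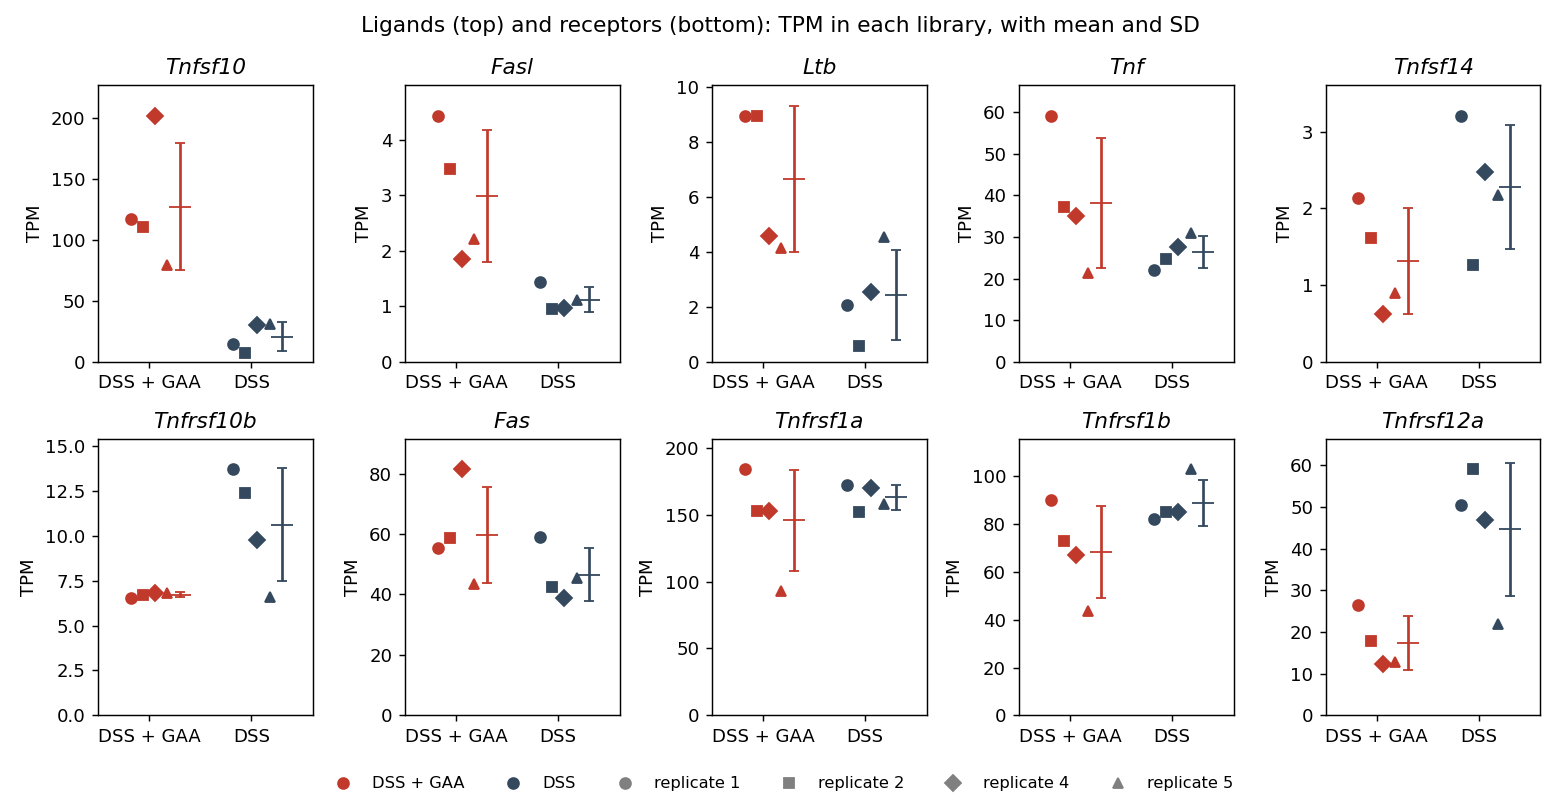
TPM (y axis, linear from 0) of the 5 ligands (top row) and 5 receptors (bottom row) in each DSS + GAA and DSS library, with marker shapes for replicate numbers and, beside the points, the mean and SD of 4 libraries. Tnfsf10 lies at 79.6 to 202 TPM in DSS + GAA and at 7.34 to 30.6 TPM in DSS, while the groups overlap for all 5 receptors.

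The RefSeq promoter table held 9 of the 10 genes, and the 250 bases before the RefSeq start of the 4 genes that passed are printed here, since the results turn on these genes. Capitals mark matches, on either strand, to an interferon regulatory factor core (AANNGAAA), a STAT GAS element (TTCNNNGAA), an AP-1 site (TGANTCA), an NF-kappa-B site (GGGA and TTCC with any 2 bases between) or a TATA box (TATAAA). The motif letters were chosen after these sequences had been seen. All sequences are on GRCm38.p6, read 5′ to 3′ in the direction of the gene. The windows are chr3:27316827-27317076 (plus strand) for Tnfsf10, chr17:35194257-35194506 (plus strand) for Ltb, chr1:161788496-161788745 (minus strand) for Fasl and chr17:23677450-23677699 (minus strand) for Tnfrsf12a.
Tnfsf10: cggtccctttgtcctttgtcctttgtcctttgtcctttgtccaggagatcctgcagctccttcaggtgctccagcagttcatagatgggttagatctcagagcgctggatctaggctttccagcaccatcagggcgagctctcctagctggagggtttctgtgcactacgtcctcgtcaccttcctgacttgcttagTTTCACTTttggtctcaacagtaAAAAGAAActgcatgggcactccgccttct
Ltb: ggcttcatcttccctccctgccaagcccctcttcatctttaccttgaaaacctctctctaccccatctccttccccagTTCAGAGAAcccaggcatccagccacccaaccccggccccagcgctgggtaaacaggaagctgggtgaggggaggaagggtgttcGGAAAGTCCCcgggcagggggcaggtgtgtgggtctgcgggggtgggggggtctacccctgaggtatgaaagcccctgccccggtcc
Fasl: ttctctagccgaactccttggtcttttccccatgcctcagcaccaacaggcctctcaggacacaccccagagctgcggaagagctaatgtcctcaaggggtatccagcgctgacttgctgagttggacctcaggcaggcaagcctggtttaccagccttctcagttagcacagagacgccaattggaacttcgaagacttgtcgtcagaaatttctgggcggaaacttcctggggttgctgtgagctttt
Tnfrsf12a: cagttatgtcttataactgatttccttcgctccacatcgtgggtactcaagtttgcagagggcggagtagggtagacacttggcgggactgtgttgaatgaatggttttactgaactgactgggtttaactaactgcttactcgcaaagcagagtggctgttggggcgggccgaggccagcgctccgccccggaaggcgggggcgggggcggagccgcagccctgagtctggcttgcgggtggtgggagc
The Tnfsf10 window held the interferon regulatory factor core at 2 places, starting 53 and 30 bases before the RefSeq start. Of 32851 windows of the same length over all genes in the table, 21.3% held this motif at least once and 4.20% held it 2 or more times. The Ltb window held a GAS element, starting 172 bases before its start (7.02% of all windows), and an NF-kappa-B site, starting 87 bases before it (1.21% of all windows). The 2 Ltb matches do not overlap each other, nor do the 2 Tnfsf10 matches. In the Fasl and Tnfrsf12a windows these letters were not found. Genes that did not pass held the same motifs, with the interferon regulatory factor core in Tnfrsf1b and Fas, and the GAS element in Tnfrsf1a, Tnfrsf1b and Fas. The GENCODE vM21 gene begins 49 bases before the RefSeq start for Tnfsf10, 68 for Ltb and 19 for Tnfrsf12a, and at the same base for Fasl. A match describes letters in these windows and shows no binding.

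Tnfsf10 encodes TRAIL, a ligand that triggers apoptosis through death receptors and is known to be induced by interferons. The gene lies on chromosome 3 (27317028 to 27342427, plus strand, GRCm38). It had 117, 111, 202 and 79.6 TPM in DSS + GAA replicates 1, 2, 4 and 5, against 14.2, 7.34, 30.3 and 30.6 TPM in the same-numbered DSS libraries. Every DSS + GAA library lay above every DSS library, with replicate 4 highest within DSS + GAA and replicates 4 and 5 highest within DSS. The means were 127 ± 52.2 TPM in DSS + GAA and 20.6 ± 11.7 TPM in DSS (SD, n = 4 each), a ratio of 6.17. On the log2 scale Tnfsf10 rose by 2.69 ± 0.44 (limma, adjusted p = 0.00577), and an exact permutation test (two-sided) gave p = 0.0286, which is the smallest that 70 assignments can give. The call held under every alternative run, leaving out each library included, with limma adjusted p at most 0.0252. The epithelial and the T and NK cell marker sums were higher in DSS + GAA too. Of the 11 epithelial markers, 4 were called higher (36.4%, against 5.96% of all tested genes) and 6 did not pass. The remaining one, Car1, was called lower (9.09%, against 28.2%). The part of either marker list in the Tnfsf10 result was not tested. In DSS + GAA, Tnfsf10 was second in mean level among the 10 genes, after Tnfrsf1a (146 TPM), and its range overlapped that of Tnfrsf1a. In DSS it was sixth, between Tnf (26.4 TPM) and Tnfrsf10b (10.6 TPM), and its range overlapped both. Over the 8 libraries, the tested genes whose pattern lay nearest to that of Tnfsf10 were Apol10a, Ciita and Gm12185, at a mean absolute difference of 0.234, 0.303 and 0.319 on the centred log2 scale (13088 genes compared, as a description).

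Fasl encodes the ligand of Fas, known from cytotoxic T cells and natural killer cells. It lies on chromosome 1 (161780689 to 161788495, minus strand). Its level was low, at 4.44, 3.47, 1.85 and 2.21 TPM in DSS + GAA replicates 1, 2, 4 and 5, against 1.44, 0.945, 0.976 and 1.12 TPM in the DSS libraries. The groups did not overlap, with replicates 1 and 2 high within DSS + GAA. All 4 DSS + GAA libraries and 2 DSS libraries reached 1 TPM. Fasl rose by 0.87 ± 0.22 on the log2 scale (limma, adjusted p = 0.0172), and its two-sided exact permutation p was 0.0286. Its size depended on the pseudocount, at 1.28 with 0.1 and 0.37 with 5, and without DSS + GAA replicate 2 the limma adjusted p was 0.0534. The nearest patterns included those of Naaa (0.122) and Acap1 (0.125). Of 13 T and NK cell markers, 10 rose and 0 fell, against 5.96% higher calls among all tested genes. Their summed level was 155 to 431 TPM in DSS + GAA and 77.2 to 108 TPM in DSS, and 0 of them were at 0 in all libraries. Their part in the Fasl result was not tested.

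Ltb encodes lymphotoxin beta, which joins lymphotoxin alpha in a membrane trimer that signals through the lymphotoxin beta receptor and is known for its role in forming lymphoid tissue. It lies on chromosome 17 (35194439 to 35196320, plus strand), 3061 bases from Tnf. The 4 DSS + GAA libraries had 8.94, 8.94, 4.57 and 4.12 TPM, against 2.07, 0.565, 2.55 and 4.54 TPM in DSS. The groups overlapped in 1 place, since DSS replicate 5 lay above DSS + GAA replicate 5. Ltb rose by 1.22 ± 0.39 on the log2 scale (limma, adjusted p = 0.0390), and its two-sided exact permutation p was 0.0571. The call was lost with the replicate numbers as a block (limma, adjusted p = 0.0749), with a pseudocount of 0.1 (0.0505), with no filter (0.0501) and without any 1 of 6 libraries (0.0512 to 0.104), namely DSS replicates 1, 2 and 4 and DSS + GAA replicates 1, 2 and 4. Its partner gene Lta stayed under 1 TPM in every library, at 0.476 to 0.707 TPM in DSS + GAA and 0.361 to 0.966 TPM in DSS, which is below the filter, and did not pass with no filter (limma, adjusted p = 0.667). The receptor gene Ltbr had 79.3 ± 5.23 TPM in DSS + GAA and 84.2 ± 6.39 TPM in DSS (SD, n = 4 each) and did not pass (log2 fold change -0.08 ± 0.11, limma, adjusted p = 0.563). The patterns nearest to Ltb were those of Ifit1bl2 (0.127), Gfi1 (0.185) and Cd96 (0.187). Of 8 listed B cell markers, 4 were tested and 0 passed in limma, where 5.96% of all tested genes were called higher and 28.2% lower. With 4 tested genes this count cannot be told from those shares. The summed level of the 8 markers was 7.90 to 25.1 TPM in DSS + GAA and 14.1 to 25.1 TPM in DSS. The T and NK cell markers given beside Fasl also moved with Ltb, and their part in this result was not tested.

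Tnf encodes the founding cytokine of the superfamily, made chiefly by macrophages and T cells. It lies on chromosome 17 (35199381 to 35202007, minus strand). Its level was 59.2, 37.2, 35.0 and 21.3 TPM in DSS + GAA replicates 1, 2, 4 and 5, against 22.1, 24.7, 27.7 and 30.9 TPM in DSS. DSS + GAA replicates 1, 2 and 4 lay above all DSS libraries, and replicate 5 lay below them. The difference did not pass, with a log2 fold change of 0.44 ± 0.27 (limma, adjusted p = 0.223). It passed without DSS + GAA replicate 5 (log2 fold change 0.68, limma, adjusted p = 0.0413). Under the 3 other scalings the log2 fold change was 0.66 to 0.74, and Tnf did not pass (limma, adjusted p = 0.0849 to 0.116). The authors' deposited table, whose test settings and scaling are not stated, calls Tnf higher in DSS + GAA. It gives a log2 fold change of 0.53 and a false discovery rate of 0.0244. Macrophage and monocyte markers, a source of Tnf, summed to 455 to 1180 TPM in DSS + GAA and 812 to 1050 TPM in DSS, with 3 of 12 lower (25.0%, near the 28.2% of all tested genes) and 0 higher. T and NK cell markers summed to 155 to 431 TPM in DSS + GAA and 77.2 to 108 TPM in DSS. Of these, 10 of 13 were higher (76.9%, against 5.96% of all tested genes) and 0 lower. Neutrophil markers summed to 142 to 404 TPM in DSS + GAA and 2170 to 6480 TPM in DSS, with 9 of 10 lower (90.0%). Their part in the Tnf values was not tested. The patterns nearest to Tnf were those of Duox2 (0.076), Trim12a (0.091) and Parvg (0.102).

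Tnfsf14 encodes LIGHT, a ligand that binds the lymphotoxin beta receptor and HVEM, and acts as a T cell costimulator. It lies on chromosome 17 (57189492 to 57194177, minus strand). It had 2.13, 1.61, 0.618 and 0.891 TPM in DSS + GAA, against 3.21, 1.26, 2.47 and 2.17 TPM in DSS. The groups overlapped, since DSS replicate 2 lay below DSS + GAA replicates 1 and 2. The log2 fold change of -0.52 ± 0.26 did not pass (limma, adjusted p = 0.152) and passed with array quality weights (0.0388), which did not fully converge. Pkig (0.076), She (0.08) and Foxp2 (0.083) had the nearest patterns.

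Among the receptors, Tnfrsf10b, the mouse TRAIL death receptor, had 6.52, 6.68, 6.79 and 6.83 TPM in DSS + GAA, against 13.7, 12.4, 9.79 and 6.57 TPM in DSS (chromosome 14, 69767472 to 69784411, plus strand). The DSS + GAA libraries had an SD of 0.139 TPM, against 3.16 TPM in DSS, and DSS replicate 5 lay inside the DSS + GAA range. The log2 fold change of -0.55 ± 0.21 did not pass (limma, adjusted p = 0.0662), and it passed without DSS replicate 5 (-0.74, limma, adjusted p = 0.0158). It also passed with array quality weights (limma, adjusted p = 0.0321), which did not fully converge. Bag3 (0.053), Fosl2 (0.075) and B3glct (0.085) had the nearest patterns.

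Fas, the receptor of Fas ligand, had 55.2, 58.7, 81.4 and 43.5 TPM in DSS + GAA, against 59.1, 42.6, 38.9 and 45.4 TPM in DSS (chromosome 19, 34290666 to 34327772, plus strand). Replicate 4 was high in DSS + GAA and replicate 1 in DSS, and the groups overlapped. The log2 fold change was 0.34 ± 0.20 on TPM as deposited (limma, adjusted p = 0.216). It was called higher under trimmed mean scaling (0.60, limma, adjusted p = 0.0461), where 13.3% of tested genes were called higher, and under median centring (0.64, limma, adjusted p = 0.0399), where 15.2% were. Nampt (0.149), Sharpin (0.154) and Wrn (0.158) had the nearest patterns.

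Tnfrsf1a encodes TNFR1, the TNF receptor with a death domain, and had the highest mean TPM of the 10 genes in both groups. Its level was 184, 153, 153 and 93.3 TPM in DSS + GAA, against 172, 152, 170 and 158 TPM in DSS (chromosome 6, 125349362 to 125362484, plus strand). DSS + GAA replicate 5 lay below all other libraries. The log2 fold change of -0.20 ± 0.19 did not pass (limma, adjusted p = 0.445), and its sign turned under trimmed mean scaling (0.07) and median centring (0.10). Tnfrsf1b encodes TNFR2, which is found mainly on leukocytes and endothelium. It had 90.2, 72.8, 67.2 and 43.6 TPM in DSS + GAA, against 82.1, 85.2, 85.1 and 103 TPM in DSS (chromosome 4, 145213463 to 145246870, minus strand). DSS + GAA replicate 5 was again the lowest of the 8 libraries and DSS replicate 5 the highest. The log2 fold change of -0.41 ± 0.20 did not pass (limma, adjusted p = 0.145), and it passed without DSS + GAA replicate 1 (-0.56, limma, adjusted p = 0.0346). Capza2 (0.077), Prkx (0.081) and Loxl3 (0.087) lay nearest to Tnfrsf1a, and Mb21d2 (0.073), Bicdl1 (0.076) and Spata6 (0.077) nearest to Tnfrsf1b.

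Tnfrsf12a encodes Fn14, a small receptor that injured epithelium and stroma are known to induce, and whose ligand is TWEAK. It had 26.4, 17.9, 12.2 and 12.9 TPM in DSS + GAA, against 50.5, 59.0, 46.8 and 22.0 TPM in DSS (chromosome 17, 23675445 to 23677468, minus strand). The groups overlapped only through DSS replicate 5, which lay below DSS + GAA replicate 1. The means were 17.3 ± 6.53 TPM in DSS + GAA and 44.6 ± 15.9 TPM in DSS (SD, n = 4 each), a ratio of 0.389. Tnfrsf12a had a log2 fold change of -1.29 ± 0.33 (limma, adjusted p = 0.0178), and its two-sided exact permutation p was 0.0571. Under trimmed mean scaling it was -1.03 (limma, adjusted p = 0.0589), under quantile normalization -1.02 (0.0575), under median centring -0.99 (0.0626), and -1.20 (0.0600) when DSS replicate 1 was left out, so the call was lost in these fits while the direction stayed. Of the fibroblast markers 3 of 8 were lower (37.5%, against 28.2% of all tested genes) and 0 higher, and they summed to 357 to 1270 TPM in DSS + GAA and 1470 to 4420 TPM in DSS. Of the endothelial markers 5 of 8 were lower (62.5%, against the same 28.2%) and 0 higher, and they summed to 25.4 to 104 TPM in DSS + GAA and 105 to 176 TPM in DSS. Their part in the Tnfrsf12a result was not tested. Nlrp3 (0.129), Dlc1 (0.134) and Usp35 (0.141) had the nearest patterns.

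**Figure D2:**
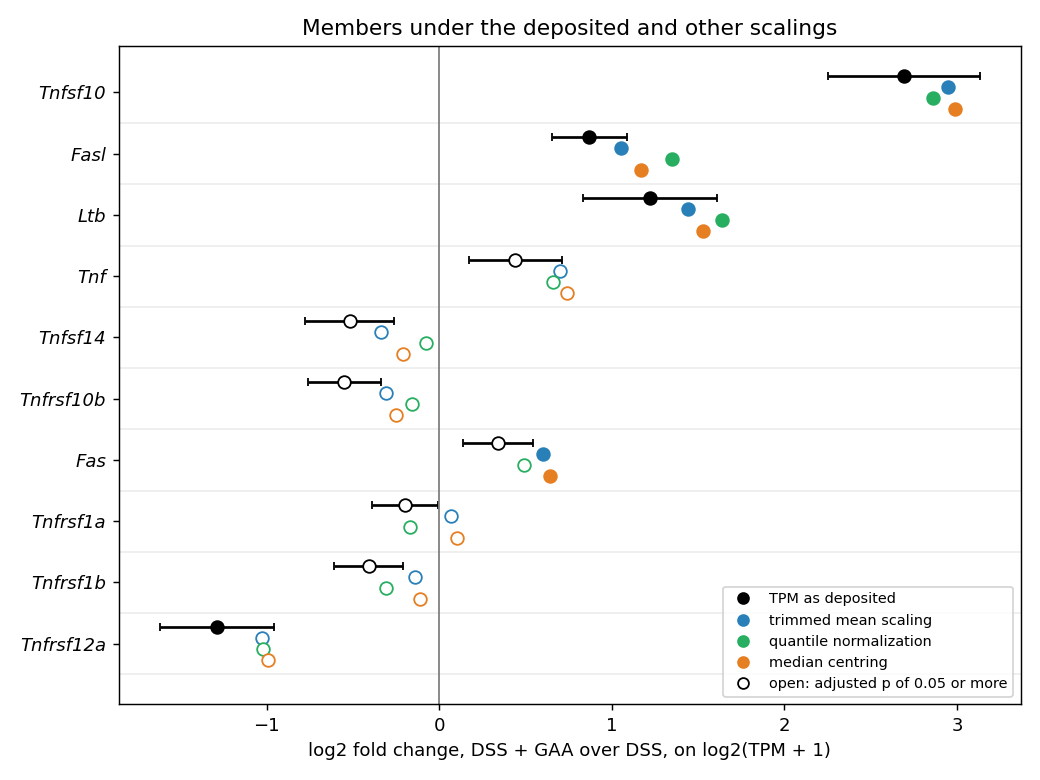
Log2 fold change of DSS + GAA over DSS (x axis) for the 10 genes, on TPM as deposited (black, with standard error) and under 3 other scalings (colours); filled points have a limma adjusted p under 0.05. Tnfsf10, Fasl and Ltb are filled under all 4, Tnfrsf12a on TPM as deposited alone, and Fas under trimmed mean scaling and median centring.

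The ratio of a ligand to a receptor within 1 library does not change when all genes of that library are multiplied by the same factor. Quantile normalization is not of this kind, and the ratios were not recomputed under the other scalings. They are given as a description. The TPM ratio of Tnfsf10 to Tnfrsf10b was 17.9, 16.6, 29.7 and 11.7 in DSS + GAA replicates 1, 2, 4 and 5, against 1.03, 0.591, 3.10 and 4.66 in DSS. All 4 DSS + GAA ratios lay above all DSS ratios. The ratio of Tnf to Tnfrsf1b was 0.656, 0.511, 0.520 and 0.488 in DSS + GAA, against 0.269, 0.290, 0.325 and 0.301 in DSS. This ratio separated the groups although neither gene passed, and in DSS + GAA replicate 5 both genes were low together. How often the ratios of other gene pairs separate the groups was not computed, for this or any other pair given here. Among single tested genes, DSS + GAA lay wholly above DSS for 5.31% and wholly below for 27.6%. Likewise the ratio of Tnf to Tnfrsf1a was 0.228 to 0.322 in DSS + GAA and 0.129 to 0.195 in DSS. The ratio of Tnfrsf1b to Tnfrsf1a overlapped, at 0.440 to 0.491 in DSS + GAA and 0.478 to 0.650 in DSS. The ratio of Fasl to Fas overlapped too, at 0.0228 to 0.0804 in DSS + GAA and 0.0222 to 0.0251 in DSS, with DSS + GAA replicate 4 inside the DSS range. The ratio of Ltb to Ltbr was 0.0545 to 0.117 in DSS + GAA and 0.00735 to 0.0504 in DSS, without overlap. The ratio of Tnfsf14 to Tnfrsf14, its receptor HVEM, was 0.0292 to 0.141 in DSS + GAA and 0.227 to 0.368 in DSS, and also did not overlap. The ratio of Tnfrsf12a to Tnfsf12, the TWEAK gene, overlapped at 1.30 to 1.73 in DSS + GAA and 1.10 to 3.75 in DSS.

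**Figure D3:**
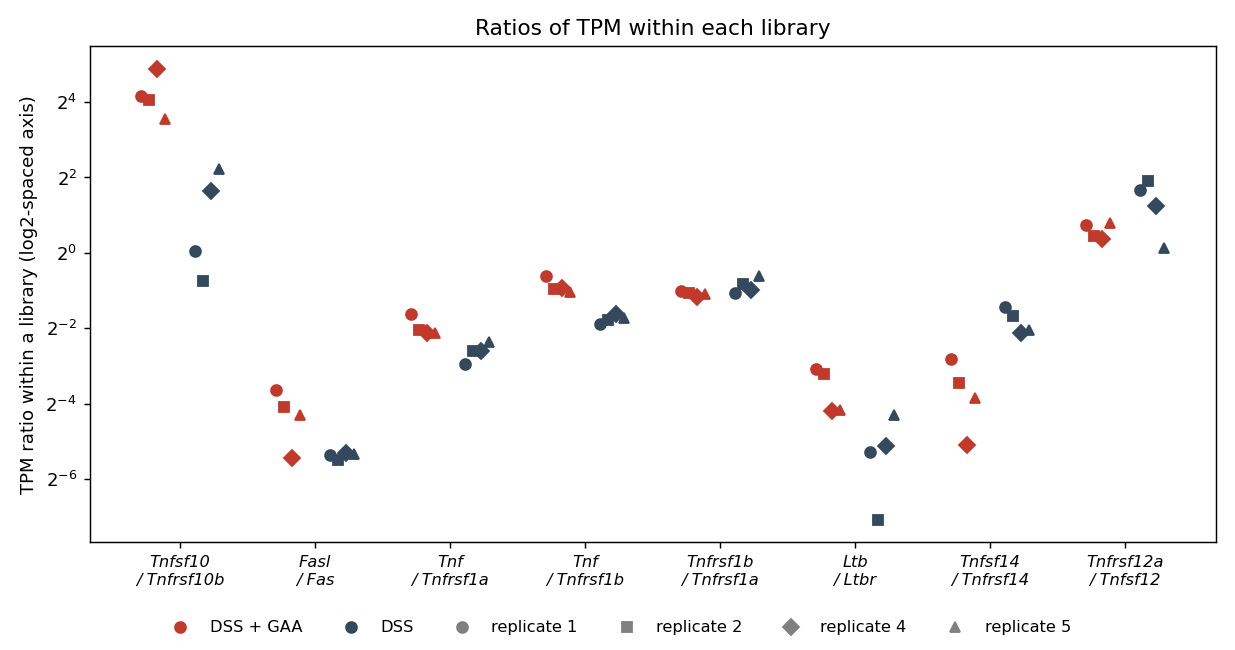
Ratio of TPM between the named genes within each library (y axis, spaced by log2), with DSS + GAA left of DSS for each pair and marker shapes for replicate numbers. The groups do not overlap for Tnfsf10 to Tnfrsf10b, Tnf to either receptor, Ltb to Ltbr, and Tnfsf14 to Tnfrsf14. The share of other gene pairs that separate the groups was not computed.

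Of 13 other TNF superfamily ligands, 7 were tested, and 4 fell, 0 rose and 3 did not pass. Tnfsf11 (RANKL), the osteoclast and M cell differentiation factor, had 2.33 ± 1.08 TPM in DSS + GAA and 16.5 ± 9.38 TPM in DSS (log2 fold change -2.33 ± 0.39, limma, adjusted p = 0.00585). Tnfsf9 (4-1BB ligand), a T cell costimulator, had 2.13 ± 0.635 TPM in DSS + GAA and 9.09 ± 2.77 TPM in DSS (-1.67 ± 0.23, limma, adjusted p = 0.00510). Its receptor gene Tnfrsf9 fell as well, with 1.95 ± 1.08 TPM in DSS + GAA and 7.32 ± 2.67 TPM in DSS (-1.52 ± 0.31, limma, adjusted p = 0.00912). Eda, the ectodysplasin gene, had 0.146 to 0.614 TPM in DSS + GAA and 1.13 to 2.45 TPM in DSS. It reached 1 TPM in 0 DSS + GAA and 4 DSS libraries, so it met the filter only through the group where it was higher. Its fall of 0.85 on the log2 scale (limma, adjusted p = 0.0123) is therefore given as a description. The call was lost under quantile normalization (0.0643) and median centring (0.0538), and Eda was not tested with a minimum of 5 TPM. Tnfsf12 (TWEAK) had 11.4 ± 3.72 TPM in DSS + GAA and 17.8 ± 2.31 TPM in DSS, and fell by 0.64 (limma, adjusted p = 0.0469). That call was lost under trimmed mean scaling (0.246), quantile normalization (0.329) and median centring (0.296), with no filter (0.0581), with the replicate numbers as a block (0.0891), and on leaving out any 1 library other than DSS + GAA replicate 1 (0.0657 to 0.108). The median of the 7 tested ligands was -0.64, against -0.25 for all tested genes, of which 28.2% were called lower.

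Of 23 other receptors, 20 were tested, and 2 rose, 3 fell and 15 did not pass, with a median log2 fold change of -0.26. Over all tested genes 5.96% rose and 28.2% fell, with a median of -0.25, so the 15.0% of receptors that fell lay below that share, and the 10.0% that rose were 2 genes. Cd27, a costimulatory receptor of T cells, had 3.81 ± 1.32 TPM in DSS + GAA and 1.00 ± 0.411 TPM in DSS (1.25 ± 0.23, limma, adjusted p = 0.00680). Tnfrsf14 (HVEM), which binds LIGHT and the inhibitory receptor BTLA, had 16.7 ± 3.60 TPM in DSS + GAA and 8.14 ± 2.90 TPM in DSS (1.00 ± 0.27, limma, adjusted p = 0.0219). Its call was lost without DSS replicate 1 (0.0524), DSS + GAA replicate 2 (0.0593) or DSS + GAA replicate 4 (0.0564). Ngfr, the low-affinity neurotrophin receptor of glia and nerves, had 4.66 ± 2.25 TPM in DSS + GAA and 13.7 ± 2.12 TPM in DSS (-1.46 ± 0.27, limma, adjusted p = 0.00732). Tnfrsf11b (osteoprotegerin), a soluble decoy for RANKL that also binds TRAIL, had 5.02 ± 2.79 TPM in DSS + GAA and 10.7 ± 3.53 TPM in DSS (-1.03 ± 0.35, limma, adjusted p = 0.0463). That call was lost under the 3 other scalings (0.126 to 0.167), with no filter (0.0587), with a minimum of 5 TPM (0.0508), and without any 1 library other than DSS + GAA replicate 1 (0.0538 to 0.134). The count of higher receptors was 1 without DSS replicate 1, DSS + GAA replicate 2 or DSS + GAA replicate 4, and that of lower ones was 7 without DSS + GAA replicate 1. The decoy TRAIL receptors of the mouse, Tnfrsf22 (-0.57 ± 0.20, limma, adjusted p = 0.0501) and Tnfrsf23 (-1.14 ± 0.51, limma, adjusted p = 0.110), did not pass. Both passed when DSS + GAA replicate 1 was left out (-0.70 and -1.61, limma, adjusted p = 0.0136 and 0.0100). Both also passed with array quality weights (limma, adjusted p = 0.00735 and 0.0406), which did not fully converge. Tnfrsf22 passed with no filter (0.0474) and with plain empirical Bayes (0.0431) too. Its level was low, at 0.425 to 1.28 TPM in DSS + GAA and 1.16 to 2.05 TPM in DSS. Tnfrsf23 was uneven within DSS + GAA, where its TPM ran between 3.14 and 22.1, against 15.4 to 23.2 TPM in DSS.

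**Figure D4:**
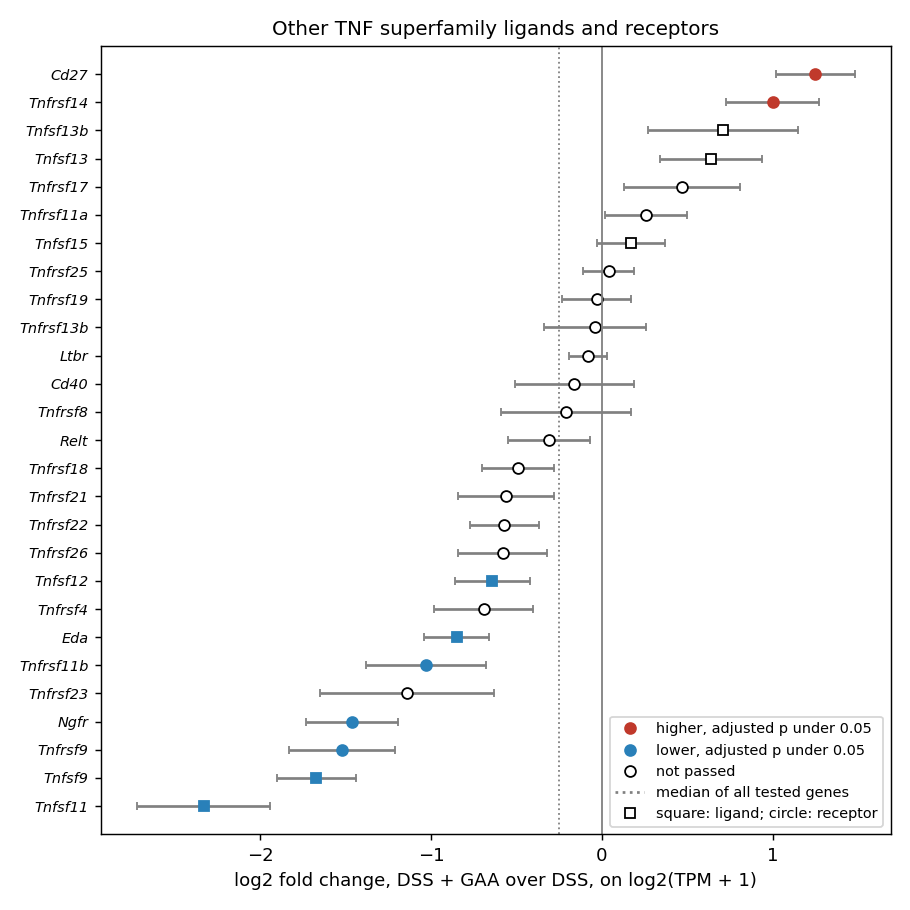
Log2 fold change of DSS + GAA over DSS with standard error (x axis) for the 7 ligands (squares) and 20 receptors (circles) of the superfamily that were tested beside the 10 genes; the dotted line is the median of all tested genes. Tnfsf11 lies lowest (-2.33) and Cd27 highest (1.25).

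All 35 listed genes that signal downstream of the death receptors were tested, and 9 rose, 6 fell and 20 did not pass. These are 25.7% higher and 17.1% lower calls, against 5.96% higher and 28.2% lower over all tested genes, so the share of falls lay below that of all tested genes. Tradd, the adaptor of TNFR1, had 76.6 ± 3.45 TPM in DSS + GAA and 50.5 ± 8.86 TPM in DSS (0.61 ± 0.13, limma, adjusted p = 0.0111). Bid, which caspase-8 cleaves to engage mitochondria, had 28.2 ± 4.59 TPM in DSS + GAA and 16.7 ± 2.69 TPM in DSS (0.72 ± 0.16, limma, adjusted p = 0.0120). Tradd and Bid passed in all limma fits that were run.

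The 6 genes that fell included Diablo, which frees caspases from inhibition, with 14.1 ± 1.09 TPM in DSS + GAA and 22.4 ± 0.775 TPM in DSS (-0.64 ± 0.11, limma, adjusted p = 0.00585). Bax, a pore-forming protein of the mitochondrial pathway, fell by 0.45, Birc2 (cIAP1), an inhibitor that ubiquitinates RIPK1, by 0.66, and the survival gene Bcl2 by 0.69 (limma, adjusted p = 0.0178, 0.0209 and 0.0231). Under trimmed mean scaling, quantile normalization and median centring, 1 of the 35 genes was lower, against 11.6%, 11.3% and 9.20% of all tested genes, and 12, 11 and 12 were higher, against 13.3%, 11.8% and 15.2%. Diablo kept its call in every fit, while Bax, Birc2 and Bcl2 lost theirs under the 3 scalings (limma, adjusted p = 0.0655 to 0.397). Bax lost its call when DSS replicate 1 was left out (0.0560), Birc2 on leaving out DSS + GAA replicate 2 or DSS replicate 1 or 2 (0.0527 to 0.0624), and Bcl2 on leaving out DSS + GAA replicate 2, 4 or 5 or DSS replicate 1 or 5 (0.0527 to 0.0735). Leaving out DSS + GAA replicate 2 or 4, or DSS replicate 1, made the number of higher genes 5. The number of lower genes was 1 on leaving out DSS replicate 1, 2 on leaving out DSS + GAA replicate 2, and 3 on leaving out replicate 5 of either group. The genes that did not pass included the adaptor Fadd (0.15 ± 0.21, limma, adjusted p = 0.602), which Fas and the TRAIL receptor recruit, the initiator Casp8 (0.39 ± 0.21, limma, adjusted p = 0.170) and its inhibitor Cflar (0.04 ± 0.20, limma, adjusted p = 0.880). Casp8 passed without DSS + GAA replicate 5 (0.57, limma, adjusted p = 0.0405). The list's median was 0.06, against -0.25 for all tested genes. The epithelium and T and NK cell marker sums given above also differed between the groups, and their part in these counts was not tested.

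**Figure D5:**
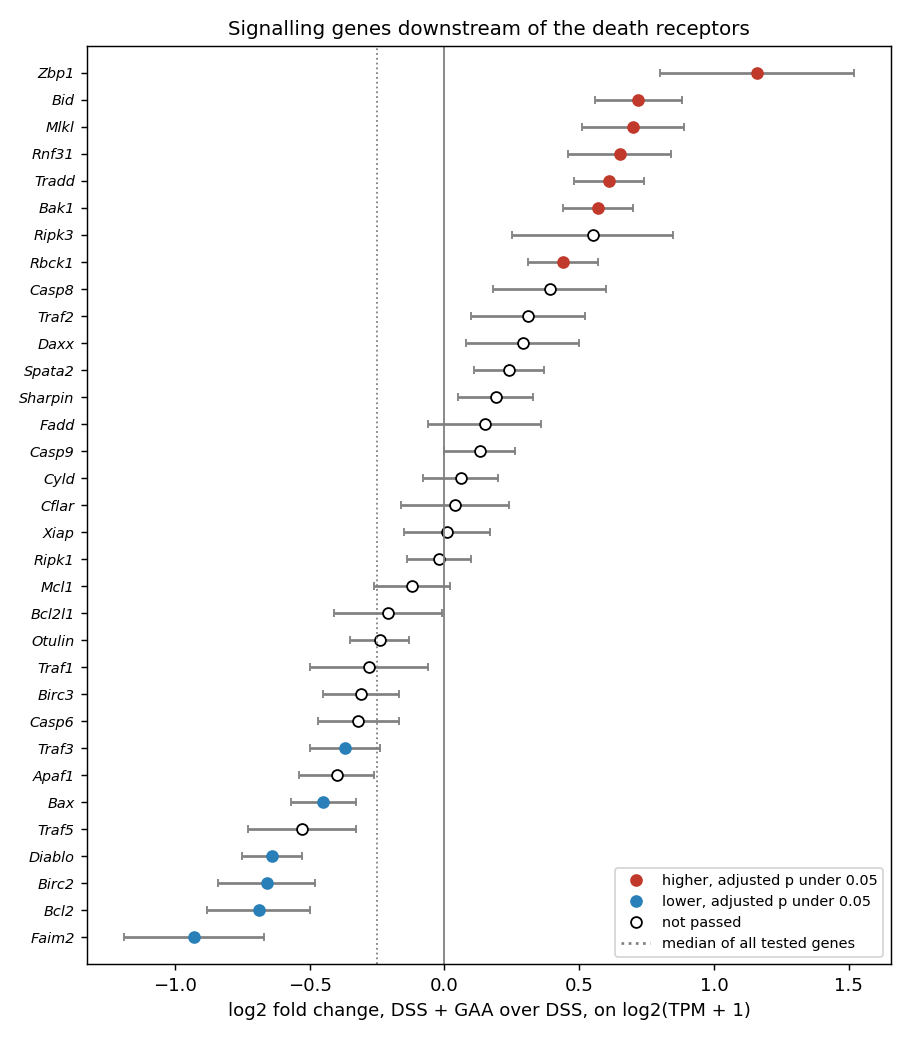
Log2 fold change of DSS + GAA over DSS with standard error (x axis) for 33 of the 35 listed signalling genes, ordered by size; red and blue points passed as higher and lower on TPM as deposited, and the dotted line is the median of all tested genes. Tradd (0.61) and Bid (0.72) are among the red points, and Fadd, Casp8 and Cflar are among the open points.

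Of 34 genes that TNF is known to induce through NF-kappa-B, 33 were tested, and 16 fell, 2 rose and 15 did not pass, with a median log2 fold change of -0.89, against -0.25 for all tested genes. The falls were 48.5% of the tested list, against 28.2% of all tested genes, and the rises were 6.06%, against 5.96%, which is the share over all tested genes. Under trimmed mean scaling, quantile normalization and median centring 13 of these genes were lower, against 11.6%, 11.3% and 9.20% of all tested genes. Under the same scalings 3, 2 and 3 were higher, against 13.3%, 11.8% and 15.2%. The falls with the smallest p were those of Cxcl5, Csf3, Il6 and Cxcl1 (log2 fold changes -2.19, -5.71, -4.19 and -3.30), which other cytokines induce as well. Mean levels in DSS + GAA and DSS were 113 and 545 TPM for Cxcl5, 1.91 and 61.7 TPM for Il6, and 19.3 and 218 TPM for Cxcl1. Csf3 lay at 0.108 to 0.569 TPM in DSS + GAA and 18.5 to 221 TPM in DSS. It reached 1 TPM in 0 DSS + GAA and 4 DSS libraries, so it met the filter only through DSS and its call is a description. Irf1, which interferon gamma also induces, rose (412 ± 138 TPM in DSS + GAA and 146 ± 25.0 TPM in DSS, 1.43 ± 0.28, limma, adjusted p = 0.00789), and so did the chemokine gene Cx3cl1 (65.4 ± 11.5 TPM in DSS + GAA and 33.8 ± 11.2 TPM in DSS, 0.97 ± 0.24, limma, adjusted p = 0.0152). The Cx3cl1 call was lost without DSS replicate 1 (0.0528). Tnf itself, with the values given above, did not pass in either direction. Neutrophil, fibroblast and endothelial marker sums were lower in DSS + GAA, and their part in the 16 falls was not tested. Of 9 tested genes known from lymphotoxin beta receptor and non-canonical NF-kappa-B signalling, 0 passed in limma. Among all tested genes 5.96% were called higher and 28.2% lower. The median log2 fold change of the 9 genes was -0.34, against -0.25 for all tested genes. Cxcl13 (-1.46 ± 0.52, limma, adjusted p = 0.0575) and Madcam1 (-0.88 ± 0.34, limma, adjusted p = 0.0706) had an unadjusted p under 0.05. Map3k14 (-0.44 ± 0.21) and Nfkb2 (-0.34 ± 0.17), which is also in the list of TNF-induced genes, had the next smallest p.

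The authors' deposited table, whose exact test settings are not stated, has a false discovery rate under 0.05 for 10.3% of its genes as higher and 16.2% as lower. In the authors' deposited table the 4 genes called here have false discovery rates of 3.76e-18 (Tnfsf10), 8.47e-07 (Ltb), 2.21e-06 (Fasl) and 0.00280 (Tnfrsf12a), with the same directions. Beyond these, Tnf is under 0.05 in the authors' deposited table, while Fas (0.0879), Tnfsf14 (0.302), Tnfrsf10b (0.400), Tnfrsf1a (0.812) and Tnfrsf1b (0.891) are not.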

How the data were processed

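RNA sequencing of colon tissue gave 4 DSS + GAA and 4 DSS libraries. The authors deposited 1 table of 18262 genes with TPM values per library, each library adding up to 1000000, and with their log2 fold change, p-value and false discovery rate for DSS + GAA over DSS. The submitters' processing notes name mm10 and, in no order and without versions, edgeR, featureCounts (Subread), HISAT2, Bowtie2, Trimmomatic, GATK and SAMtools. TPM holds no counts, so depth is unknown and no count test was run.

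Here, log2(TPM + 1) of 14217 genes (at least 1 TPM in at least 4 libraries) was compared with limma 3.58.1 in R 4.3.3 (group as sole term, variance trend, robust empirical Bayes, two-sided, Benjamini-Hochberg adjustment over all tested genes). Errors are SD of TPM over 4 libraries and standard errors of fold changes. Named genes are the 10 genes, up to 4 genes of smallest p per list and direction, fixed partners, and the 3 nearest patterns per gene among tested genes with mean TPM of at least 2. Nearness is the mean absolute difference of centred log2 values over the 8 libraries. Of the genes this rule names, 3 are not reported here. The genes and lists were chosen with earlier results of these data known. Positions are from GENCODE vM21 and promoters from RefSeq, both on GRCm38. Alternatives were other pseudocounts (0.1 and 5), filters (none, or at least 5 TPM), scalings (trimmed mean, quantile, median centring), array quality weights, plain empirical Bayes, replicate number as a block, an exact permutation test over 70 assignments, and leaving out each library.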

Additional observations from a re-analysis of the deposited data

Results flagged for a closer look

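Tnfrsf1b in DSS replicate 5 had 103 TPM, against 82.1, 85.2 and 85.1 TPM in the other DSS libraries, a gap to the nearest library that is large for a group of 4. The check was made on 20 groups (10 genes in each treatment group), and chance flags about 1 in 20 groups.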

How the results depend on the processing

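On the gene level, under the alternatives, 162 values of the 10 genes kept direction and side of the threshold, 16 lost a call, 7 gained one and 2 turned sign, both of Tnfrsf1a (0.07 under trimmed mean scaling, 0.10 under median centring). Of the 10 genes, 1 was higher with a minimum of 5 TPM, where Fasl, Ltb and Tnfsf14 were not tested; 0 were lower under trimmed mean scaling, quantile normalization and median centring, and 3 with array quality weights. With 1 library left out, 1 to 4 were higher and 0 to 2 lower. Over all tested genes, 1890, 1677 and 2165 were higher and 1648, 1601 and 1308 lower under trimmed mean scaling, quantile normalization and median centring, and 388 to 1291 higher and 1944 to 4468 lower with 1 library left out.

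Other ligands: 1 was higher with no filter, median centring or array quality weights (0 to 1 with 1 library left out), and 2 were lower under quantile normalization and median centring. Other receptors: 1 was higher and 1 lower with a minimum of 5 TPM, 5 lower with array quality weights, and 1 to 3 higher and 2 to 7 lower with 1 library left out. Death receptor signalling: 1 was lower under each of the 3 scalings, and 5 to 12 were higher and 1 to 6 lower with 1 library left out. TNF-induced genes: 1 to 2 were higher and 13 to 19 lower with 1 library left out. Ltbr turned sign under trimmed mean scaling (0.19), quantile normalization (0.01) and median centring (0.22), and Cflar with array quality weights (-0.09), without DSS + GAA replicate 1 (-0.12) or DSS replicate 2 (-0.06). The array quality weights did not fully converge. The causes were not tested.

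The replicate numbers share no stated source, and the deviations of same-numbered libraries correlated at 0.180, -0.109, 0.146 and -0.030 over genes, so the numbers were not taken as pairs. With the replicate block, 2 of the 10 genes were higher and 1 lower (679 higher and 3340 lower over all tested genes). Without counts, what depth limits cannot be given; Fasl, Ltb and Tnfsf14, at a few TPM, depend most on the pseudocount.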

Other observations

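Of the 6 other ligands below the filter, Cd40lg, which activated T helper cells use to license B cells and macrophages, is given here because of its values. It was at 1.29, 2.20, 2.02 and 0.790 TPM in DSS + GAA replicates 1, 2, 4 and 5, and at 0.138 and 0.267 TPM in DSS replicates 4 and 5, while it was listed at 0 in DSS replicates 1 and 2. All DSS + GAA libraries lay above all DSS libraries, and Cd40lg was called higher in the fit with no filter on low TPM (log2 fold change 1.19 ± 0.185, limma, adjusted p = 0.00791). That fit called 821 genes higher, and 5.31% of the genes past the filter lay wholly above DSS. Cd40lg reached 1 TPM in 3 DSS + GAA and 0 DSS libraries. The receptor gene of the same ligand, Cd40, had 5.19 ± 2.39 TPM in DSS + GAA and 5.82 ± 2.54 TPM in DSS (SD, n = 4 each) and did not pass (log2 fold change -0.16 ± 0.35, limma, adjusted p = 0.741). Among the receptors below the filter, Eda2r, a receptor of ectodysplasin, lay at 0.204 to 0.350 TPM in DSS + GAA and 0.607 to 2.27 TPM in DSS (-0.90 ± 0.194 with no filter, limma, adjusted p = 0.0141). The fit with no filter called 4292 genes lower, and 27.6% of the genes past the filter lay wholly below DSS. Cd40lg and Eda2r were both chosen after their values were seen.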
